A study of Arabidopsis thaliana with 8 samples.

Results

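A set of 10 genes of sucrose import and cleavage were followed in developing *Arabidopsis* seeds in which the chromatin remodelers *PKL* and *PKR2* were lost singly or together. They were chosen by name, as 10 of the 38209 genes listed in each table. The set held the sugar exporters *SWEET10*, *SWEET11*, *SWEET12* and *SWEET15*, the sucrose carriers *SUC3* and *SUC5*, the cell wall invertases *CWINV2* and *CWINV4*, and the sucrose synthases *SUS2* and *SUS3*. Seeds of 4 genotypes were sequenced as mRNA, with 2 biological replicates each and 8 samples in all. The genotypes were Col-0 (the wild type, WT), the single mutants *pkr2-2* (the T-DNA line SALK_115303) and *pkl-1*, and the double mutant *pkr2-2;pkl-10*, all in the Col-0 accession and without any treatment. The double mutant carries another *PKL* allele (*pkl-10*, GABI_273E06) than the single mutant, so a second lost gene and a second allele cannot be told apart where the 2 mutants are compared. All plants were grown with 16 h of light and selfed by hand. Each replicate pooled the seeds of at least 30 siliques, harvested at 4 days after pollination by the sample labels and at 3 by the extraction protocol. Expression was given as FPKM, the fragments of a transcript per kilobase of its length after scaling to library depth. The authors pooled it over both replicates into 1 value per genotype and comparison, so the spread between replicates is unknown and nothing below was tested over replicates.

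A seed receives sucrose from the phloem, which ends in its outer coat, and the endosperm and the embryo have no vascular link to the mother plant. Sucrose therefore leaves the cells of the coat through SWEET proteins, which let sugars pass along their gradient, and is taken up from the wall space by SUC proteins, which couple sucrose to protons. On the way it can be split into glucose and fructose by invertases of the cell wall, or inside cells by sucrose synthase, which yields UDP-glucose. PKL is a CHD3 chromatin remodeler known for keeping embryonic genes silent after germination and for its link to the repressive mark H3K27me3. PKR2 is its close relative.

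The files gave a limited check of the labels. *PKR2* was at 0.168 FPKM in *pkr2-2* against 3.06 in WT, and the double mutant had 0.120 FPKM of it against 3.57. *PKL* stood at 2.44 FPKM in the double mutant and at 13.6 in WT. The transcript was not lower in *pkl-1* (15.2 FPKM) than in WT (12.8), which leaves the label of *pkl-1* unchecked by the level of its target. The same genotype had FPKM values that differed between tables by a nearly constant factor, such as 1.17 for WT, so levels were compared only within a table, and the 5 comparisons draw on 4 pooled values per gene. By an estimate from the smallest FPKM values, the fragments behind a genotype were 0.897 times those of WT in *pkr2-2*, 1.23 times in *pkl-1* and 1.54 times for the double mutant. The members rested on 2 to 10189 fragments. From these numbers an exact 95% counting interval (Clopper-Pearson) was computed for each ratio. It covers counting error only, so a ratio outside it may still lie within the spread between replicates.

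In WT seeds the 10 genes spanned a wide range of FPKM. In the table with the double mutant *SWEET10* stood at 118 FPKM, *SWEET12* at 71.3, *CWINV4* at 66.8 and *SUC5* at 62.3. *SWEET11* followed at 23.0 FPKM, *SWEET15* at 9.07 and *SUC3* at 6.82. *SUS2* at 0.924 FPKM, *CWINV2* at 0.506 and *SUS3* at 0.0199 were at the low end. Of the 9 pairs of neighbours in this order, 0 lay within counting error of each other. The order differed in the mutants. *SUC5* (47.8 FPKM) stood above *SWEET10* (41.4) in *pkl-1*, and *SWEET15* (14.2) stood beside *SWEET12* (13.2) in the double mutant. That last pair lay within counting error, as did *SWEET12* and *SUC5* and also *CWINV2* and *SUS2* in *pkr2-2*, and *SUC3* and *SWEET15* and also *SUS2* and *CWINV2* in *pkl-1*. *SUS2* and *CWINV2* stayed under 1 FPKM in every genotype, and *SUS3* passed that level only where *PKL* was mutated.

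**Figure D1:**
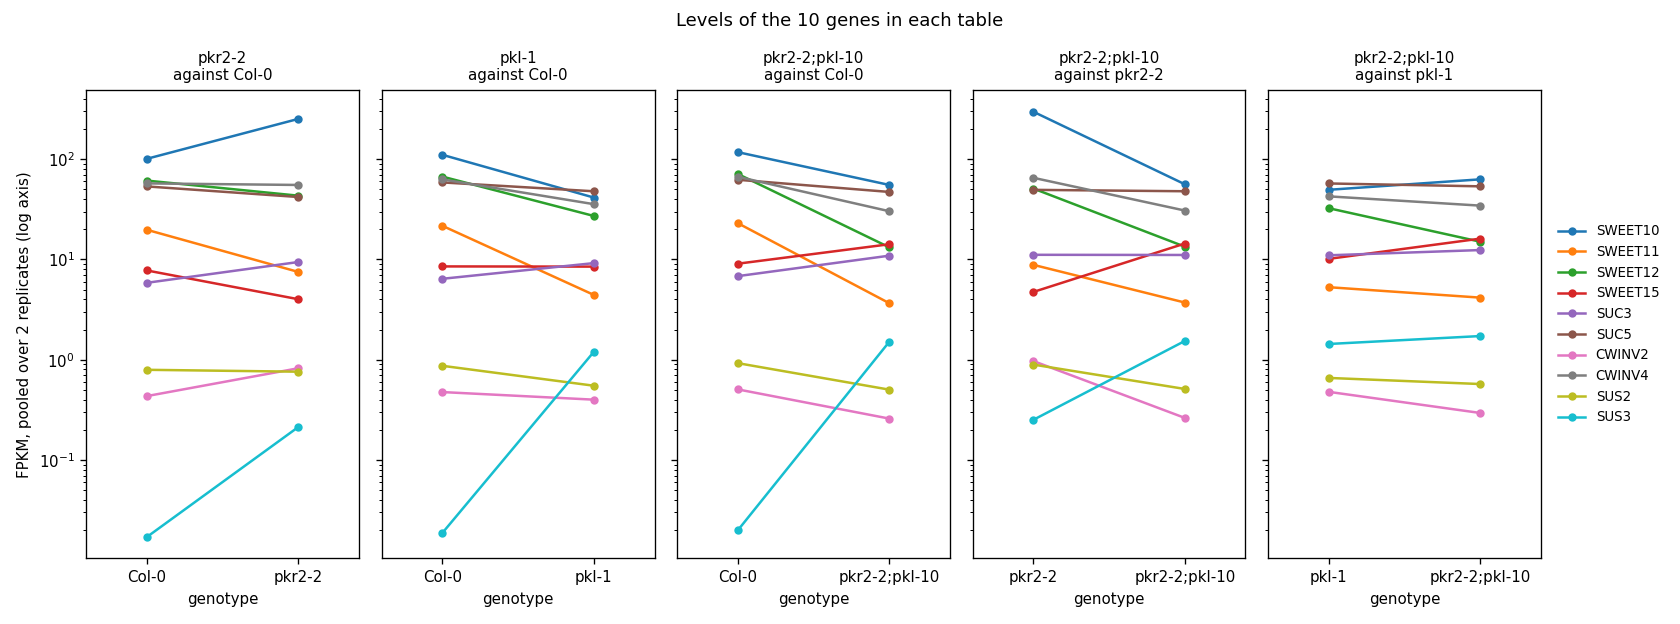
FPKM on a log axis for the 10 genes, pooled over 2 replicates, with 1 panel per comparison, 1 point per gene and genotype, and a line joining the 2 genotypes of a panel. The line of *SWEET10* runs upward in *pkr2-2* (101 to 252 FPKM) and downward in *pkl-1* (111 to 41.4 FPKM), and *SUS3* climbs from the bottom of the scale in the mutants of *PKL*.

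The SWEET exporters gave the most varied picture of the set. *SWEET10* was higher than WT in *pkr2-2* and lower in *pkl-1* and the double mutant, *SWEET11* and *SWEET12* were lower in all mutants, and *SWEET15* was lower in *pkr2-2* and higher in the double mutant. In bulk seed RNA, fewer cells of a type and less RNA per cell cannot be told apart. The 4 genes are single loci of TAIR10.1 on the minus strand, with 6 exons each, and shared none of their 50-base stretches with another gene. The 250 bases before each annotated start are shown because these genes differed in direction within 1 family. Capitals mark a run that contains GAGAGAGA (read on the other strand) in *SWEET10* and the RY element CATGCA in *SWEET12* and *SWEET15*. The sequences are written 5′ to 3′ along the gene and come from the RefSeq assembly TAIR10.1, minus strand, at chr5:20658002-20658251, chr3:18054833-18055082, chr5:7973996-7974245 and chr5:4183355-4183604 in turn.
SWEET10: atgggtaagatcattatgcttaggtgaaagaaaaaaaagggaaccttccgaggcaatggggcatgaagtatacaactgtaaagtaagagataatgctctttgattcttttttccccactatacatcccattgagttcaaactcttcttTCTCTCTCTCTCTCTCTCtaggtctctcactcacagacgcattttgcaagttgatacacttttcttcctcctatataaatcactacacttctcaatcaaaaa
SWEET11: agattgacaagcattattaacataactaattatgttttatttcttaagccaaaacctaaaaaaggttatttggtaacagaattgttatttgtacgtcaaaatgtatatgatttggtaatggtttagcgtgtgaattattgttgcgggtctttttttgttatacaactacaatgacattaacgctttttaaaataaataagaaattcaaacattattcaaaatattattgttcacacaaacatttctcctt
SWEET12: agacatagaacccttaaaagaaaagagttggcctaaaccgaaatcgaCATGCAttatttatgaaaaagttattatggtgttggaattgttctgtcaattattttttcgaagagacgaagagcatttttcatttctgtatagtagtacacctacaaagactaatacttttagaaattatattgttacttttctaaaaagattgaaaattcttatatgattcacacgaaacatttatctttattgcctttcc
SWEET15: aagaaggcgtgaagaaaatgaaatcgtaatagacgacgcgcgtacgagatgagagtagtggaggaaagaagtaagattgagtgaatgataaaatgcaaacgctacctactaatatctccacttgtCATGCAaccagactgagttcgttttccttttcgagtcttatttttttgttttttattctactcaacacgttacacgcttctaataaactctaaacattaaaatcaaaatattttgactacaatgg
Of 27443 promoters of this length, 4.91% held GAGAGAGA and 8.43% held CATGCA on either strand, and *SWEET11* held neither.

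*SWEET10* (AT5G50790, chromosome 5 from 20656193 to 20658001) encodes a sucrose exporter that is switched on in shoots at the floral transition. It stood at 101 FPKM in WT and 252 in *pkr2-2*, which was 2.50-fold higher (log2 ratio 1.32, interval 1.27 to 1.37). In *pkl-1* it was at 41.4 FPKM against 111 in WT, which was 2.67-fold lower (log2 ratio -1.42, interval -1.49 to -1.34). The double mutant held it at 55.3 FPKM against 118, or 2.12-fold lower (log2 ratio -1.09). The single mutants thus lay on opposite sides of WT, and the double mutant on the side of *pkl-1*. Against *pkr2-2*, the double mutant went from 298 to 56.2 FPKM, 5.30-fold lower (log2 ratio -2.40), and against *pkl-1* it went from 49.5 to 62.9 FPKM (log2 ratio 0.35, interval 0.27 to 0.43). Among all 17 SWEET genes, *SWEET10* ranked 3 by FPKM in WT and 1 in *pkr2-2*, where it made up 31.6% of their summed FPKM, compared with 15.4% in WT of the same table. In *pkl-1* its share was 8.58% and in the double mutant 10.8%.

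*SWEET11* (AT3G48740, chromosome 3 from 18052466 to 18054832) and *SWEET12* (AT5G23660, chromosome 5 from 7971647 to 7973995) encode plasma membrane exporters that act together in phloem loading of leaves and, with *SWEET15*, in filling the seed. *SWEET11* was at 19.8 FPKM in WT and 7.50 in *pkr2-2* (log2 ratio -1.40, interval -1.59 to -1.22). It was at 21.7 FPKM in WT and 4.43 in *pkl-1*, 4.89-fold lower, and at 23.0 and 3.66 FPKM in WT and the double mutant, 6.29-fold lower (log2 ratio -2.65, interval -2.87 to -2.45). Each mutant was below WT, with the double mutant lowest. Against the single mutants, the double mutant stood at 3.72 FPKM compared with 8.84 in *pkr2-2* (log2 ratio -1.25), and at 4.16 compared with 5.29 in *pkl-1* (log2 ratio -0.35, interval -0.61 to -0.08).

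*SWEET12* was closer to WT in *pkr2-2* than *SWEET11* was, at 43.2 FPKM against 61.1 (log2 ratio -0.50, interval -0.59 to -0.41). In *pkl-1* it was at 27.1 FPKM against 67.0 in WT, or 2.47-fold lower. The double mutant held it at 13.2 FPKM against 71.3, or 5.40-fold lower (log2 ratio -2.43, interval -2.55 to -2.32). It was the only one of the 10 genes that differed by over 2-fold between the double mutant and *pkl-1*, with 15.02 FPKM against 32.4 (log2 ratio -1.11, interval -1.24 to -0.99). Against *pkr2-2* it was at 13.4 FPKM compared with 51.0, or 3.80-fold lower.

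*SWEET15* (AT5G13170, chromosome 5 from 4181042 to 4183354), listed in the files as *SAG29* for its association with leaf senescence, is the third exporter of seed filling. It was at 7.77 FPKM in WT and 4.01 in *pkr2-2* (log2 ratio -0.95, interval -1.22 to -0.68). In *pkl-1* it was at 8.48 FPKM against 8.52, a log2 ratio of -0.01 with an interval of -0.21 to 0.20. The double mutant stood above WT, at 14.2 FPKM against 9.07 (log2 ratio 0.64, interval 0.47 to 0.83). The double mutant was thus above both single mutants, at 14.4 FPKM against 4.74 in *pkr2-2* (3.04-fold, log2 ratio 1.61) and at 16.1 against 10.13 in *pkl-1* (log2 ratio 0.67, interval 0.50 to 0.84). The summed FPKM of the 4 exporters, in which *SWEET10* weighs most, was 307 in *pkr2-2* against 190 in WT. It was 81.4 in *pkl-1* against 208 in WT, and 86.4 in the double mutant against 221.

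**Figure D2:**
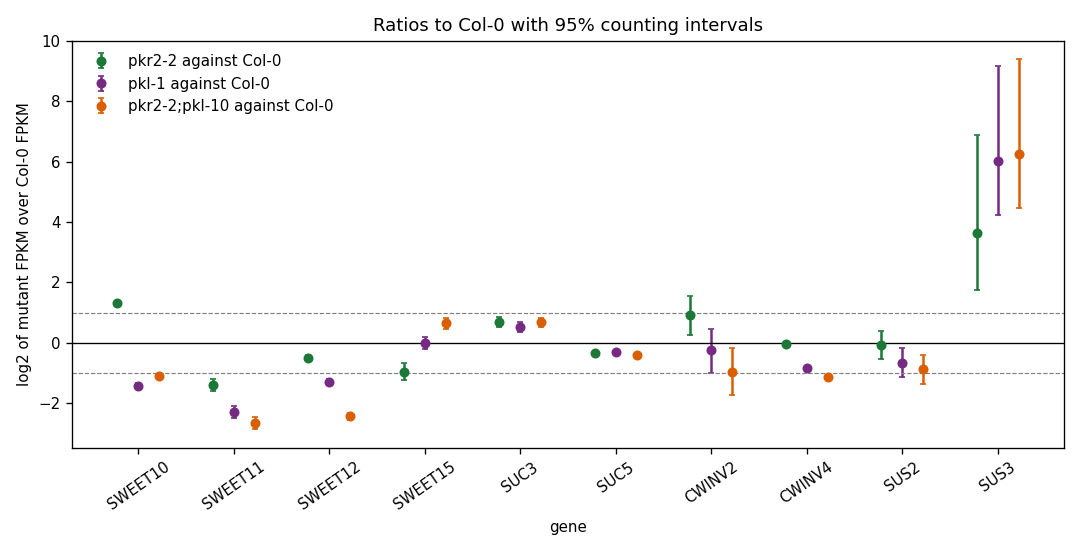
Log2 of the mutant FPKM over the Col-0 FPKM for the 10 genes, with 1 point per mutant, 95% counting intervals as bars and dashed lines at a 2-fold difference. *SWEET11* and *SWEET12* lie below 0 in all 3 mutants, *SWEET10* lies above 0 only in *pkr2-2*, and *SUS3* has the highest ratios with the widest intervals.

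Neither of the sucrose carriers reached a 2-fold difference in any comparison. *SUC5* (AT1G71890, chromosome 1 from 27058381 to 27060786, plus strand) encodes a carrier of the endosperm. It was at 53.5 FPKM in WT and 41.9 in *pkr2-2* (log2 ratio -0.35), at 58.6 and 47.8 in *pkl-1* (-0.29), and at 62.3 and 47.1 in the double mutant (-0.40). The 3 mutants stood within a narrow band below WT. The double mutant was at 47.9 FPKM against 49.4 in *pkr2-2* (log2 ratio -0.05, interval -0.12 to 0.02) and at 53.6 against 57.3 in *pkl-1* (log2 ratio -0.10). *SUC5* made up 22.4% of the summed FPKM of the 9 SUC genes in WT, 31.9% in *pkr2-2*, 36.4% in *pkl-1* and 38.9% for the double mutant. It ranked 2 of 9 in WT and 1 in *pkl-1* and the double mutant, where *SUC2*, the carrier of phloem loading, was lower.

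*SUC3* (AT2G02860, chromosome 2 from 828279 to 832619, minus strand), listed in the files as *SUT2*, encodes a carrier of sink tissues. It was higher than WT in every mutant, at 9.43 FPKM against 5.85 in *pkr2-2* (log2 ratio 0.69, interval 0.53 to 0.85), 9.19 against 6.41 in *pkl-1* (0.52, interval 0.36 to 0.67) and 10.9 against 6.82 in the double mutant (0.68, interval 0.53 to 0.83). The ratios were alike in size. The double mutant was at 11.1 FPKM and *pkr2-2* also at 11.1 in their own table (log2 ratio -0.01, interval -0.13 to 0.12), and it was at 12.4 against 11.0 in *pkl-1* (log2 ratio 0.17, interval 0.05 to 0.30).

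Of the 4 cell wall invertase genes summed here, *CWINV4* (AT2G36190, chromosome 2 from 15174624 to 15178086, minus strand) carried nearly all of the signal. The enzyme is known for its part in nectar secretion. It gave 99.2% of the summed FPKM of 4 cell wall invertase genes (*CWINV1*, *CWINV2*, *CWINV4* and *CWINV5*) in WT, and 97.6% in the double mutant. *CWINV3* and *CWINV6* were left out of this sum. *CWINV3* was at 25.2 FPKM in WT and 37.8 in the double mutant, and *CWINV6* at 0.217 and 2.48. In *pkr2-2* *CWINV4* was at 55.3 FPKM against 57.3 in WT (log2 ratio -0.05, interval -0.11 to 0.01). In *pkl-1* it was at 35.6 FPKM against 62.9 (log2 ratio -0.82), and in the double mutant at 30.3 against 66.8, or 2.21-fold lower (log2 ratio -1.14, interval -1.20 to -1.08). Beyond counting error, *CWINV4* was therefore lower only in the genotypes with a mutated *PKL*. Against *pkr2-2* the double mutant was at 30.7 FPKM compared with 65.3 (log2 ratio -1.09), and against *pkl-1* at 34.4 compared with 42.6 (log2 ratio -0.31).

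*CWINV2* (AT3G52600, chromosome 3 from 19506891 to 19509412, minus strand), an invertase of the wall of floral tissues, was read at 27 to 58 fragments per genotype. It was at 0.822 FPKM in *pkr2-2* against 0.434 in WT (log2 ratio 0.92, interval 0.27 to 1.56), at 0.399 in *pkl-1* against 0.476 (-0.25, interval -0.99 to 0.46) and at 0.259 in the double mutant against 0.506 (-0.97, interval -1.74 to -0.18). The double mutant was lower than *pkr2-2*, at 0.263 FPKM against 0.970 (log2 ratio -1.88, interval -2.58 to -1.19), and its interval against *pkl-1* held 0, at 0.294 FPKM against 0.478 (log2 ratio -0.70, interval -1.46 to 0.09). These values are uncertain, since the last 42 bases of *CWINV2* overlap exons of the ubiquitin gene *UBQ1* (AT3G52590) on the other strand, and the library protocol describes no step that marks strand, so reads of both genes cannot be told apart there. *UBQ1* was at 954 FPKM in WT and 499 in the double mutant (log2 ratio -0.93), and at 818 and 797 in WT and *pkr2-2* (-0.04). Its part in the values of *CWINV2* was not tested.

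Sucrose synthases of this set were scarce. *SUS2* (AT5G49190, chromosome 5 from 19943181 to 19947588, minus strand) and *SUS3* (AT4G02280, chromosome 4 from 994726 to 998991, plus strand) are known from seeds at the later, maturing stage. Together they gave 0.526% of the summed FPKM of the 6 sucrose synthase genes in WT and 1.48% in the double mutant. *SUS2* was at 0.759 FPKM in *pkr2-2* against 0.793 in WT (log2 ratio -0.06, interval -0.54 to 0.41), at 0.550 in *pkl-1* against 0.869 (-0.66, interval -1.14 to -0.17) and at 0.503 in the double mutant against 0.924 (-0.88, interval -1.36 to -0.41). It was lower where *PKL* was mutated. The double mutant was at 0.511 FPKM against 0.894 in *pkr2-2* (log2 ratio -0.81) and at 0.572 against 0.658 in *pkl-1* (log2 ratio -0.20, interval -0.71 to 0.31).

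*SUS3* differed most from WT in ratio. It was at 0.0187 FPKM in WT and 1.20 in *pkl-1*, 2 fragments against 169, a ratio of 64.2 with a log2 interval of 4.22 to 9.15. It was at 0.0199 FPKM in WT and 1.51 in the double mutant, 2 fragments against 249, a ratio of 76.1 with a log2 interval of 4.47 to 9.39. In *pkr2-2* it was at 0.214 FPKM against 0.0170, 24 fragments against 2, with a log2 ratio of 3.65 and an interval of 1.73 to 6.87. The size of these ratios is poorly known because 2 fragments stand for WT, and with 1 FPKM added to both values the log2 ratio was 1.301 in the double mutant and 0.25 in *pkr2-2*. Between mutants the counts were larger. The double mutant was at 1.54 FPKM against 0.251 in *pkr2-2*, or 6.13-fold higher (log2 ratio 2.61, interval 2.00 to 3.28), and at 1.72 against 1.43 in *pkl-1* (log2 ratio 0.26, interval -0.02 to 0.56). The level was thus lowest in WT, intermediate in *pkr2-2* and highest in both *PKL* mutants. The 250 bases before its start are shown as those of the gene with the largest ratio, at chr4:994476-994725 of TAIR10.1, plus strand, with the RY element CATGCA in capitals at the end next to the start.
SUS3: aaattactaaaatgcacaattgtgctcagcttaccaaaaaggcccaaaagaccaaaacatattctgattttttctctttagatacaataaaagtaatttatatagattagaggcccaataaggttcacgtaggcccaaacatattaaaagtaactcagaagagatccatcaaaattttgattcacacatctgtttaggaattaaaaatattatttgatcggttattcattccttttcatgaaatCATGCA
The RY element is bound by seed maturation regulators of the B3 class. It was in the 250 bases of 4 of the 10 genes (*SWEET12*, *SWEET15*, *SUC5* and *SUS3*), which included genes higher and lower in the mutants.

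The other motifs searched in the same windows, on both strands, were rarer among the 10 genes. The G-box CACGTG, a site of bZIP and bHLH factors, was before *SUC5* alone and in 6.49% of all promoters. The I-box GATAAG of light-responsive genes was before *SUC3* and *SUC5*, and in 12.3% of all promoters. GAGAGAGA, to which BPC proteins bind, was before *SWEET10* alone. The evening element AAAATATCT (2.36% of all promoters), the telobox AAACCCTA (4.49%) and TATCCA, known from sugar-responsive promoters (13.6%), were before 0 of the 10. The motifs do not overlap each other in these genes. A match is a description of the letters in the window, and no match says nothing of a factor.

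By the rule for likeness, the genes nearest to *SUS3* over the 5 log2 ratios, among 16101 genes with at least 1 FPKM in every value, were the peroxidase gene *PA2* (AT5G06720, distance 3.49), AT1G62510 (3.58) and AT3G57250 (3.61). The log2 ratios of *PA2* were 2.17 in *pkr2-2*, 3.48 in *pkl-1* and 4.55 for the double mutant. Those of AT1G62510 were 0.94, 6.18 and 5.70 in the same order. Those of *SUS3* were 3.65, 6.01 and 6.25 and rested on 2 fragments in WT, so the distances are uncertain. *SUS3* itself does not meet this minimum, so genes as low in WT as *SUS3* were not among the candidates. The 5 ratios derive from 4 pooled values.

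The members past a 2-fold difference were read beside the share of all genes past it. A gene was counted when it had at least 1 FPKM in either genotype, which 7 of the 10 had in *pkr2-2* against WT and 8 in each other comparison. In *pkr2-2*, 1 member was higher (*SWEET10*) and 1 lower (*SWEET11*), where 5.75% of 18124 genes were higher and 3.63% lower. With this minimum 0 of the 10 passed 4-fold, as 3.33% of all genes did. In *pkl-1*, *SUS3* was higher and *SWEET10*, *SWEET11* and *SWEET12* were lower, beside 10.6% and 8.76% of 18645 genes. *SUS3* passed the filter only through the mutants in which it was high, so its call follows in part from the filter. *SWEET11* and *SUS3* passed 4-fold, as 6.47% of all genes did.

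In the double mutant against WT, *SUS3* was higher and *SWEET10*, *SWEET11*, *SWEET12* and *CWINV4* were lower, where 16.2% of 19141 genes were higher and 11.7% lower. Past 4-fold were *SWEET11*, *SWEET12* and *SUS3*, beside 10.9% of all genes. Against *pkr2-2*, *SWEET15* and *SUS3* were higher and the same 4 genes as against WT were lower, beside 11.6% and 9.98% of 19094 genes. *SWEET10* and *SUS3* passed 4-fold there, as 7.74% of all genes did. Against *pkl-1*, 0 members were higher and *SWEET12* was lower, beside 4.64% and 3.47% of 19040 genes, and 0 passed 4-fold, beside 2.76%. The median log2 ratio of all 10 members was -0.06 in *pkr2-2*, -0.48 in *pkl-1* and -0.92 for the double mutant against WT, and -0.95 and -0.15 in the double mutant against *pkr2-2* and *pkl-1*. Over the genes with at least 1 FPKM in either genotype and above 0 in both it was 0.02, -0.02, 0.03, 0.01 and 0.05 in the same order. For the members with at least 1 FPKM in either genotype, 7 in the first comparison and 8 in the others, it was -0.35, -0.56, -0.75, -0.57 and 0.04. Members below 0 were 6, 8, 7, 8 and 6 of 10. This count includes members under 1 FPKM, and the share of all genes below 0 was not computed. These comparisons share pooled samples and are not independent of each other.

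**Figure D3:**
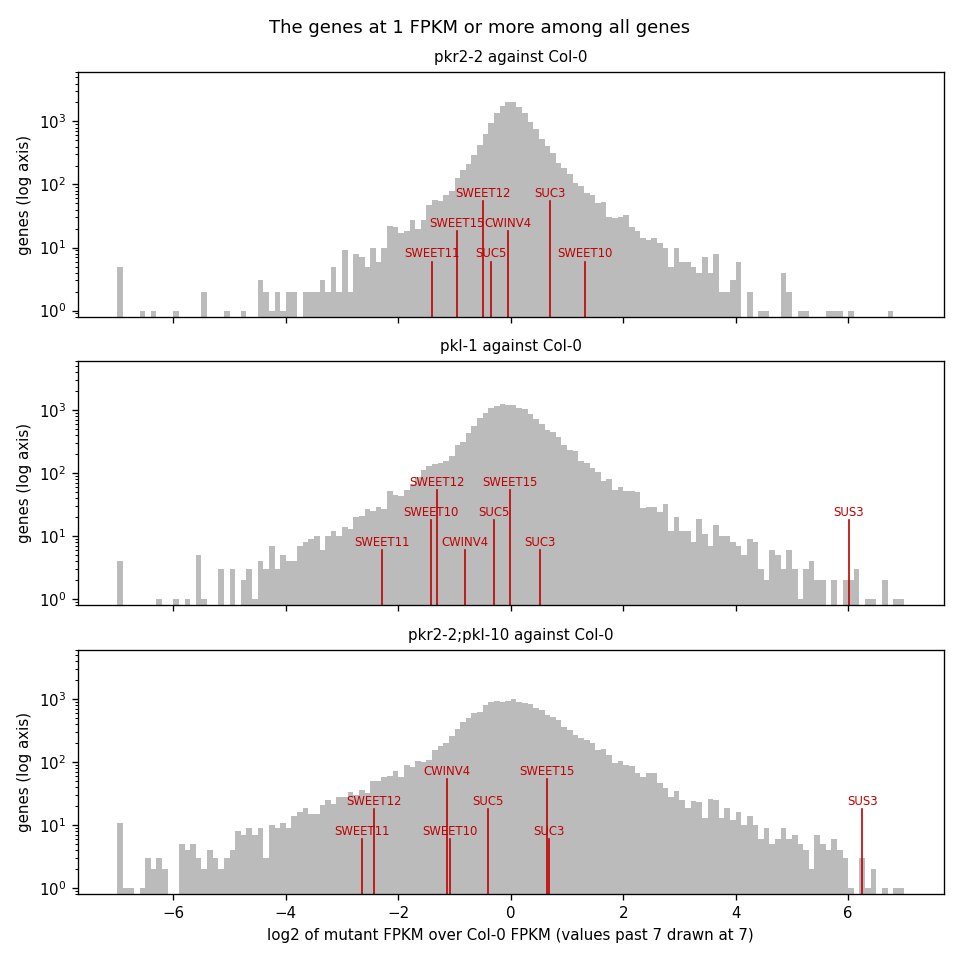
Number of genes on a log axis by the log2 ratio of the mutant to Col-0, in bins of 0.1, for genes with at least 1 FPKM in either genotype and above 0 in both, with the members that pass that filter as red lines. In *pkr2-2* *SWEET10* and *SWEET11* are the members past 2-fold (log2 ratios 1.32 and -1.40), and in both *PKL* mutants *SWEET11* lies toward the left tail and *SUS3* in the right tail.

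The design asks whether the loss of *PKL* had a like effect with and without *PKR2*. The ratio of *pkl-1* to WT and that of the double mutant to *pkr2-2* share no library, though they rest on different *PKL* alleles. For 8 of the 10 genes both ratios had the same sign, as they had for 77.4% of 21042 genes above 0 FPKM in every value. Of 9 genes with enough fragments, the ratios of 8 differed from each other by more than counting error, beside 54.7% of 18300 genes with at least 10 fragments in every value. *SUS2* was the exception (difference -0.15, interval -0.81 to 0.52). Counting intervals are narrow at high fragment numbers, so the count says little about the members. *SWEET10* was lower by 0.99 more on the log2 scale without *PKR2* than with it (difference -0.99, interval -1.08 to -0.89). *SWEET11* was the opposite case, with a ratio closer to 0 where *PKR2* was lost (difference 1.04, interval 0.72 to 1.36). *SWEET15* had a log2 ratio of -0.01 in the presence of *PKR2* and of 1.61 in its absence (difference 1.61, interval 1.301 to 1.92). *SWEET12* (difference -0.62), *SUC3* (-0.53), *CWINV4* (-0.26) and *SUC5* (0.25) differed less, and *CWINV2* by -1.63 with a wide interval (-2.58 to -0.68). For *SUS3* the difference was -3.39, with no interval because WT had 2 fragments.

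**Figure D4:**
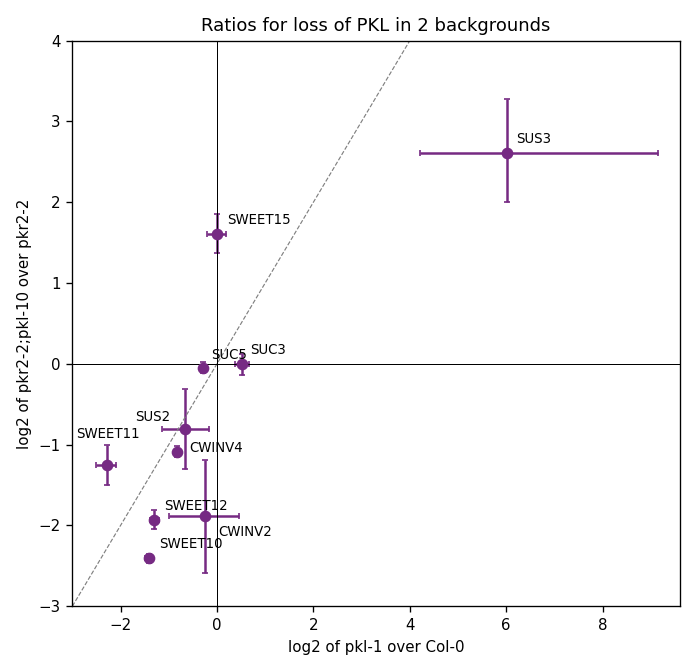
Log2 ratio of *pkl-1* to Col-0 on the horizontal axis and of *pkr2-2;pkl-10* to *pkr2-2* on the vertical axis for the 10 genes, with 95% counting intervals as bars and a dashed line where both are equal. *SWEET10*, *SWEET12*, *CWINV2*, *SUC3*, *CWINV4*, *SUS2* and *SUS3* lie below the dashed line, *SUS3* furthest. *SWEET11*, *SWEET15* and *SUC5* lie above it.

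Read the other way, as the loss of *PKR2* with and without a working *PKL*, the same 4 pooled values give nearly the same differences. *SWEET10* went from a log2 ratio of 1.32 in *pkr2-2* against WT to 0.35 in the double mutant against *pkl-1*, and *SWEET11* from -1.40 to -0.35. *SWEET15* and *CWINV2* changed sign, from -0.95 to 0.67 and from 0.92 to -0.70. For *CWINV2* the second interval held 0. Whether any of these differences exceeds the spread between replicates cannot be told from pooled values.

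The related families, 65 further genes of sugar transport and sucrose metabolism, held genes that were higher and genes that were lower. Of 45 with at least 1 FPKM in either genotype of *pkr2-2* against WT, 3 were higher by over 2-fold and 3 lower, beside 5.75% and 3.63% of all genes. Of 44 in *pkl-1*, 3 were higher and 7 lower, beside 10.6% and 8.76%. Of 46 in the double mutant against WT, 9 were higher and 9 lower, beside 16.2% and 11.7%. *SUC2*, which loads sucrose into the phloem, was at 58.2 FPKM in *pkr2-2* against 155 in WT, at 46.4 in *pkl-1* against 170 and at 33.1 in the double mutant against 181, or 5.47-fold lower. It was lower in every mutant, as *SWEET11* and *SWEET12* were. *SWEET9*, the sucrose exporter of nectaries, was at 1.15 FPKM in *pkl-1* against 11.4 in WT and at 0.495 in the double mutant against 12.1. *SWEET17*, a fructose carrier of the vacuole, was higher, at 13.04 FPKM in *pkr2-2* against 5.28 and at 22.1 in *pkl-1* against 5.78. *SWEET14* was at 2.70 FPKM in *pkr2-2* against 0.0905 in WT, at 4.55 in *pkl-1* against 0.0993 and at 7.93 in the double mutant against 0.106. Its WT values rested on 4 fragments, so the size of these ratios is poorly known.

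Among carriers that take up hexoses after invertase has split sucrose, *STP1* was at 7.51 FPKM in *pkr2-2* against 49.6 in WT, or 6.61-fold lower, and at 30.1 in the double mutant against 8.85 in *pkr2-2*. *STP13* was at 17.1 FPKM in *pkl-1* against 2.44 and at 14.7 in the double mutant against 2.59. *STP8* was at 13.04 FPKM in *pkr2-2* against 30.7, at 10.5 in *pkl-1* against 33.7 and at 7.54 in the double mutant against 35.8. Of the invertases inside the cell, the vacuolar *BETAFRUCT4* reached 78.5 FPKM in the double mutant, against 22.7 in WT, and *BETAFRUCT3* was at 9.74 against 3.78. *A/N-InvD* was at 0.544 FPKM against 5.52 and *A/N-InvF* at 3.31 against 11.0. These vacuolar enzymes were thus higher and these neutral invertases, named for their large ratios, lower in the same seeds. Of the 8 cytosolic and organelle invertases with a ratio to WT there, 4 were above it and 4 below (median log2 ratio -0.16). Against *pkr2-2*, the sucrose synthase *SUS4* was at 25.1 FPKM in the double mutant compared with 10.3, and the invertase inhibitor *C/VIF1* at 104 compared with 51.3.

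**Figure D5:**
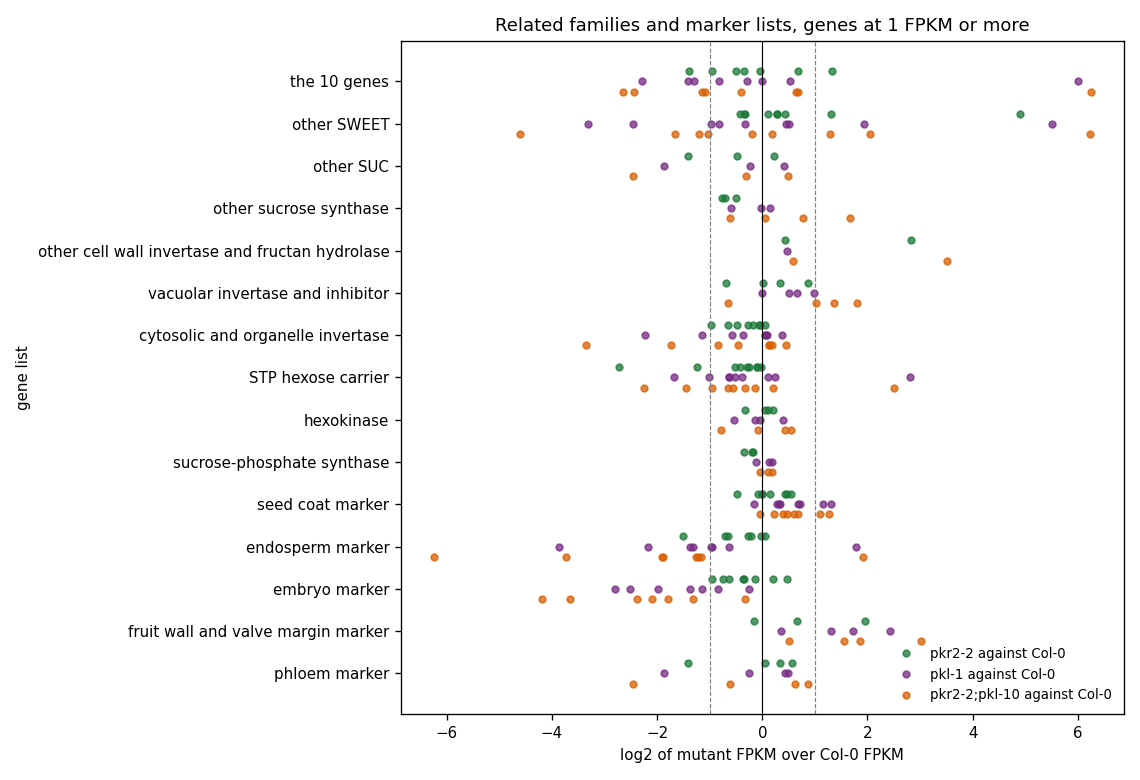
Log2 ratio of each mutant to Col-0 for the 10 genes, 9 related families and 5 lists of tissue markers, with 1 point per gene at 1 FPKM or more in either genotype, colours for the mutants and dashed lines at a 2-fold difference. Embryo and endosperm markers lie mostly below 0 in every mutant, and fruit wall markers mostly above it. These shifts are larger in *pkl-1* and the double mutant than in *pkr2-2*.

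Tissue markers also differed between the mutants and WT, in directions that varied by list. Summed over 9 endosperm markers, the FPKM was 93.2 in *pkr2-2* against 122 in WT, 62.1 in *pkl-1* against 134 and 49.2 in the double mutant against 142. In that order 1, 4 and 7 of the 9 were lower by over 2-fold, beside 3.63%, 8.76% and 11.7% of all genes. Higher were 0, 1 and 1, beside 5.75%, 10.6% and 16.2%. The 8 embryo markers summed to 112 FPKM against 143, to 60.9 against 157 and to 51.7 against 167 in the same order. Lower by over 2-fold were 0, 5 and 6 of the 8, beside 3.63%, 8.76% and 11.7% of all genes. Below WT by any amount were 6, 8 and 8. The 8 seed coat markers summed to 917 FPKM against 885, to 1243 against 970 and to 1274 against 1031. Of these, 0, 2 and 2 were higher by over 2-fold, beside 5.75%, 10.6% and 16.2% of all genes. The 4 markers of fruit wall and valve margin summed to 64.2 FPKM against 45.6, to 108 against 49.9 and to 136 against 53.1. Higher by over 2-fold were 1, 3 and 3 of them, beside the same shares of all genes. The 4 phloem markers summed to 94.5 FPKM against 188, to 91.3 against 206 and to 83.9 against 219, where *SUC2* was the only one lower by over 2-fold. Without *SUC2* the other 3 summed to higher values than in WT, at 36.4 FPKM against 32.6, 44.9 against 35.8 and 50.8 against 38.0. No marker was listed at 0 in these comparisons with WT. The part of these shifts in the levels of the 10 genes was not tested.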

How the data were processed

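Seed mRNA of 8 samples in 4 genotypes was sequenced as paired reads at a stated depth of 20 M reads. Reads were trimmed with Fastp, mapped with TopHat 2.1.1 to TAIR10.1 and quantified by Cuffdiff of Cufflinks 2.2.1.3 under geometric normalization, once per comparison. The deposited FPKM are the authors' values pooled over 2 replicates. The authors' log2 fold changes, test statistics, p-values and q-values in the same tables were not used, so no p-value is given. Log2 ratios were computed within a table without a pseudocount, and a gene was counted past a 2-fold difference with at least 1 FPKM in either genotype. Fragments were estimated as FPKM times transcript length less 290 nucleotides, divided by the value of 1 fragment, which was read from the lowest values of transcripts of at least 2000 nucleotides. Of values under 5 fragments, 65.5% to 98.4% were whole within 0.2. Alternatives were 0.1 or 1 FPKM added to both values, centring on the nuclear genes, no minimum, at least 5 FPKM, and a 4-fold difference.

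Genes named are the 10 members, *PKL* and *PKR2*, at most 2 genes per related family and comparison with the largest ratio past 2-fold at 5 FPKM or more, and the 3 nearest to *SUS3*. *UBQ1*, *CWINV1*, *CWINV3*, *CWINV5* and *CWINV6* fall outside this rule and were named after the values were seen. The members and lists were chosen with earlier results of these data known. Steps were tested on simulated data of *pkr2-2* against Col-0 over 18600 genes, drawn with counting error only. There 200 of 200 genes changed 8-fold were called and 94.6% of 500 intervals held the true ratio. The changed genes had at least 5 FPKM in Col-0, and the intervals were those of unchanged genes of that level. Genes as low as *SUS3* and the spread between replicates were thus not covered. Software was scipy 1.17.1, numpy 2.4.6 and pandas 2.3.3 under Python 3.11.15, with matplotlib 3.10.9 for plots. Protein sequences were not used here.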

Additional observations from a re-analysis of the deposited data

Results flagged for a closer look

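*SWEET15* was singled out because the loss of *PKR2* went with opposite signs in the 2 backgrounds. Its log2 ratio was -0.95 in *pkr2-2* against Col-0 (7.77 to 4.01 FPKM) and 0.67 in *pkr2-2;pkl-10* against *pkl-1* (10.13 to 16.1 FPKM). The ratios differed by 1.62, with a counting interval of 1.31 to 1.94. The share of all genes with such opposite signs was not computed. For the loss of *PKL*, read from the same pooled values, 54.7% of 18300 genes differed beyond counting error. The difference was not tested over replicates, because the values are pooled, and the double mutant also differs from *pkl-1* in its *PKL* allele.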

How the results depend on the processing

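No paired analysis was possible because the tables hold 1 pooled value per genotype, and for the same reason no replicate could be left out, which limits every value here. Of 50 member ratios, 47 moved by no more than their counting interval with a pseudocount of 0.1 FPKM, 42 with 1 FPKM and 50 with centring on nuclear genes. The log2 ratio of *SWEET15* in *pkl-1*, close to 0, was the only one to change sign. That of *SUS3* went from 6.01 to 1.11 in *pkl-1* and from 6.25 to 1.301 in the double mutant against Col-0 with 1 FPKM added. The pseudocounts and centring kept each count of members past 2-fold within 1.5 times. With no minimum FPKM, 2 members were higher in *pkr2-2*. With at least 5 FPKM, *SUS3* dropped out, so 0 members were higher in *pkl-1* and likewise in the double mutant relative to Col-0, and 1 relative to *pkr2-2*. Past 4-fold, 0 members were higher and 0 lower in *pkr2-2*, beside 3.33% of all genes in either direction. In *pkl-1*, 1 was higher and 1 lower, beside 6.47%. In the double mutant 1 was higher and 2 lower against Col-0 (10.9%), and 1 higher and 1 lower against *pkr2-2* (7.74%). Against *pkl-1*, 0 were higher and 0 lower (2.76%). Shares of all genes at 5 FPKM or with no minimum are not given.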
